A study of Saccharomyces cerevisiae with 14 samples.

Results

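The CUP1 genes encode metallothionein, a small cysteine-rich protein that binds copper ions and protects yeast cells from copper. In the reference genome CUP1-1 and CUP1-2 are identical copies that lie in a tandem repeat on chromosome VIII, and natural and laboratory strains differ in how many repeat units they carry. Transcription of CUP1 is turned on by the copper-sensing factor Cup2, also called Ace1, and the promoter of CUP1 is widely used to drive other genes on addition of copper. The locus was followed here through 11 of 59133 nuclear probes of a tiling array, those that lie whole within positions 212000 to 216500 of chromosome VIII in build sacCer2. Of these, 3 probes between 214500 and 214750, inside and beside CUP1-2, were kept apart and are called the CUP1-2 stretch, and the remaining 8 are called the repeat probes. The 5 kb flanks held 28 probes on the left and 30 on the right.

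The arrays carried genomic DNA of 13 TAQed diploid strains, each known by a number, and of WT14, the fused diploid of S799, an SK1-derived haploid, and YPH499, an S288c-derived haploid. Both parents carry mutations in URA3, LYS2 and LEU2, YPH499 also in ADE2, TRP1 and HIS3, and S799 also in HO, ARG4 and CYH2. In TAQing, the restriction enzyme TaqI was expressed in WT14 with Cu2+ from vectors with a copper-inducible promoter and then activated by heating to 42 °C for 30 min, which cuts the genome at many sites. Which gene that promoter came from is not given in the sources used here, and whether vector DNA remained in the arrayed cells was not measured. The labels repeat the treatment for WT14, which its title and the methods name as the control strain. The paper names WT14 as the parent of the TAQed strains and describes its control diploid as not TaqI-activated. The WT14 array was therefore read as the untreated control, despite its label. Every strain was hybridized once, in Cy5, against WT14 DNA in Cy3, and on 1 array WT14 stood in both channels. With 1 array per strain there was no replicate error within a strain, so values of a strain are given with the SD over the probes of the set. That SD covers the spread between probes and not the spread between cultures.

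Along the reference gene order (RefSeq, assembly R64, used for names and order only), SMF2, COX6 and CIC1 precede the locus. The CUP1 copies YHR053C (CUP1-1) and YHR055C (CUP1-2) come next, with YHR054C between them, and RSC30, CPR2 and MED6 follow. COX6 encodes a subunit of cytochrome c oxidase, RSC30 a component of the RSC chromatin remodeling complex and MED6 a subunit of Mediator. No probe lay between 212291 and 213225, a gap of 935 bases, and CUP1-1 and CUP1-2 are copies of each other. The probes therefore could not tell one copy from the other, and a ratio at the stretch covers every copy in the cell that binds the same probe.

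The arrays were alike in quality except 1. The median raw Cy5 signal was 157 to 284.5 on 13 arrays, with 99.4% to 99.9% of spots well above background, and 25 on the array of strain 81, with 80.4% of spots well above background. The probe-to-probe noise was 0.11 to 0.13 on the log2 scale on these 13 arrays and 0.19 on that of strain 81. WT14 and 5 TAQed strains shared slide 1, and 8 TAQed strains were on slide 2.

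The 3 probes of the CUP1-2 stretch were far above WT14 in 12 of 13 TAQed strains. The ratio is the log2 of Cy5 over Cy3, with the median of each array set to 0. On the WT14 array it was 0.52 at the probe from 214525 to 214584, and 0.30 and 0.41 at the 2 probes from 214590 to 214649. At the first probe the TAQed strains ran from 0.68 in strain 83 over a median of 2.99 to 5.91 in strain 113. Every TAQed array read above the 1 WT14 array at all 3 probes, that of strain 83 by only 0.17 to 0.21. The share of all nuclear probes with WT14 lowest was not computed, so this is a description. Only strain 83 stayed near WT14, at 0.68, 0.51 and 0.62. In the 12 strains with a raised stretch the 3 probes read between 2.20 and 5.91, above the highest value of 0.68 on the arrays of WT14 and strain 83. Of the 39 pairs of a stretch probe and a TAQed array, 36 (92.3%) had a ratio above 1, against 0.245% of all pairs of a nuclear probe and a TAQed array.

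The pair of probes from 214590 to 214649 have the same coordinates and served as a check of precision. Their ratios differed by −0.09 ± 0.13 (SD, n = 14 arrays), and by 0.26 at most. The 12 raised strains lay further above WT14 than this, while some neighboring strains differed by no more than it.

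**Figure D1:**
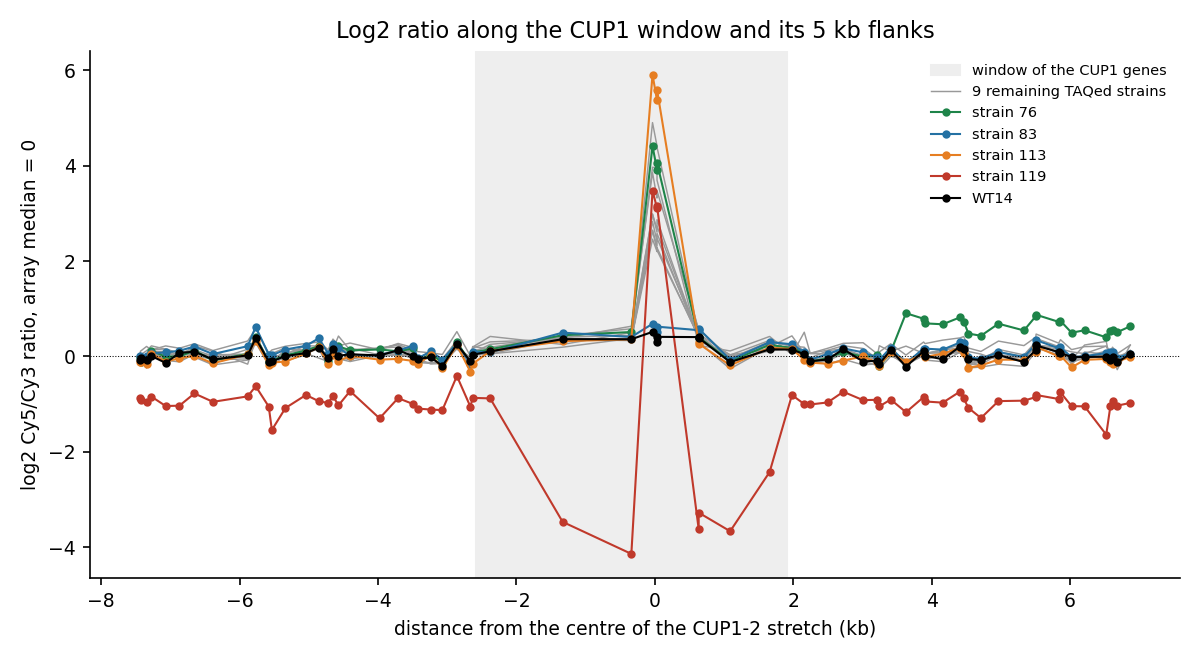
The log2 Cy5/Cy3 ratio of each probe is plotted against its distance from the centre of the CUP1-2 stretch in kb, for WT14 and the 13 TAQed strains, with the window of the CUP1 genes shaded and the dim probe at 212231 left out. The stretch stands out in 12 TAQed strains, from 2.20 to 5.91, strain 83 follows WT14, and strain 119 drops to between −4.14 and −2.42 on both sides of its raised stretch.

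Relative to the same probes on the WT14 array, the stretch was highest in strain 113, by 5.22 ± 0.16 on the log2 scale (SD, n = 3 probes), or 37.2 times WT14. Strain 84 followed at 4.16 ± 0.21, or 17.9 times, and strain 76 at 3.72 ± 0.15, or 13.2 times. These are the highest ratios, and they join changes in both channels, which are given apart further on and put the strains in another order.

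Strain 81 read 3.46 ± 0.18 above WT14, on the dim array. Strain 1 read 3.14 ± 0.17 and strain 119 read 2.84 ± 0.11. These 3 strains formed the middle of the order, and strain 119 was at 7.16 times WT14.

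Strains 117 and 73 read 2.41 ± 0.09 and 2.39 ± 0.07 above WT14, a gap of 0.03 that is within the probe spread. Strain 97 read 2.20 ± 0.10. Strains 106, 107 and 101 read 2.07 ± 0.06, 1.98 ± 0.14 and 1.89 ± 0.06.

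In this order the neighbors 117 and 73, 106 and 107, and 107 and 101 did not differ by more than the larger SD of the pair, and the other 9 gaps between neighbors did. That SD is over probes of 1 array, and the pair with the same coordinates differed by up to 0.26. The comparison thus describes the order and does not show that neighboring strains differ. The gap from strain 101 to strain 83, which read 0.20 ± 0.03 or 1.15 times WT14, was the widest, at 1.69. The lowest raised strain, 101, was at 3.69 times WT14.

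**Figure D2:**
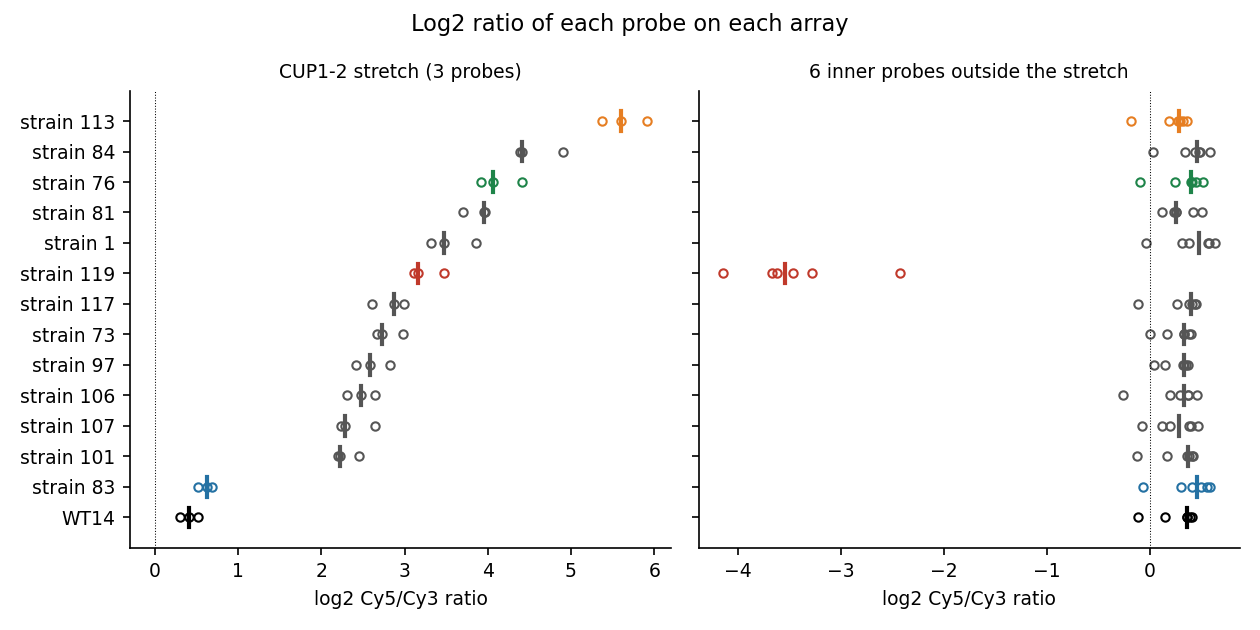
Each open circle is the log2 Cy5/Cy3 ratio of 1 probe on 1 array and each bar the median over the probes, for the 3 probes of the CUP1-2 stretch and for the 6 inner probes outside it, with strains ordered by the stretch and WT14 last. In the stretch 12 TAQed strains lie at 2.20 or above and strain 83 and WT14 at 0.68 or below, while outside it 12 TAQed strains lie with WT14 and strain 119 alone lies below −2.

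The raised part was short. The raised probes cover 125 bases, and the nearest probes on either side, ending at 214278 and starting at 215192, were not raised, so that the raised DNA spans at most 913 bases as placed on this map.

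Each channel was also read apart, as the log2 processed signal relative to the median of its array. On the WT14 array the stretch stood at 2.23 in Cy5 and 1.81 in Cy3, well above the median probe. In the 12 strains the Cy5 level of the strain's own DNA was 1.00 to 2.30 above its level on the WT14 array. On the same 12 arrays the Cy3 level was lower by 0.68 to 3.07, although the DNA in that channel was WT14 on every array. In strain 113, Cy5 was higher by 2.19 and Cy3 lower by 3.07, so that the larger share of its log2 ratio came from the reference channel. By Cy5 alone the highest strains were 81, at 2.30 above WT14, 113, 119, at 1.77, 84, at 1.76, and 76, at 1.60. The lowest of the 12 was strain 1, at 1.00, which was the fifth by ratio. On the dim array of strain 81 the inner probes outside the stretch also read higher in Cy5, by 0.67. In strain 83 Cy5 was higher by 0.02 and Cy3 lower by 0.17. The size of the ratio in these strains, and its order, therefore do not read as a number of copies, and the cause of the lower Cy3 level was not tested.

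**Figure D3:**
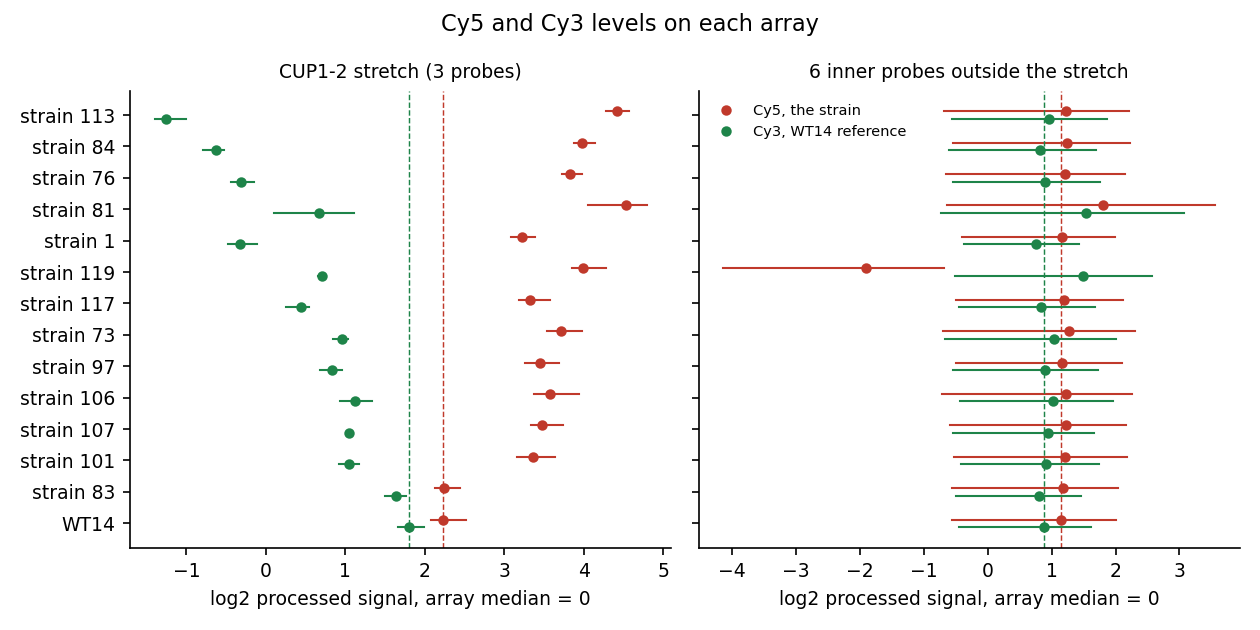
Points are means and lines the range over the probes of the log2 processed signal in Cy5, the strain, and in Cy3, the WT14 reference, each relative to its array median, with dashed lines at the levels of the WT14 array. At the CUP1-2 stretch the Cy5 level of 12 strains lies above its dashed line and the Cy3 level below its own, and at the 6 inner probes outside it only strain 119 has a low Cy5 level.

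The repeat outside the stretch was near WT14 in 12 of 13 TAQed strains and far below it in strain 119. The 8 repeat probes had a median of 0.26 on the WT14 array itself, where 4 of them read above 0.3, so values above 0.3 on this scale do not show a gain. The median was above 0.3 in 9 TAQed strains and below −0.3 in 1. After the WT14 value of each probe was subtracted, 0 strains were above 0.3 and 1 was below −0.3. Of the 104 pairs of a repeat probe and a TAQed array, 56 (53.8%) read above 0.3, against 7.33% of all pairs, and 7 (6.73%) below −0.3, against 6.48% of all pairs. The share below −0.3 is near that of all probes, and all 7 pairs belong to strain 119.

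Among the repeat probes, 2 stood apart. The probe from 212231 to 212290 was not well above background in Cy3 on any of the 14 arrays and is not read further, although it was part of the median. The probe from 212179 to 212238, left of the gap without probes, read 0.11 in WT14 and −0.88 in strain 119, where the left flank read −0.95. The other 6 repeat probes, from 213226 to 216271, are called the inner probes, a choice made after the values were seen.

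Relative to WT14, the inner probes of the 12 strains other than 119 lay between −0.05 and 0.15, or 0.965 to 1.11 times WT14. The highest were strain 1 at 0.15 ± 0.09 (SD, n = 6 probes), strain 84 at 0.13 ± 0.06 and strain 83 at 0.12 ± 0.06. The lowest was strain 113, the strain with the highest stretch, at −0.05 ± 0.06. The left flanks of the same 12 strains lay between −0.07 and 0.19 relative to WT14, so differences of this size also occurred beside the repeat, and no gain or loss of the repeat beyond them was detectable on 1 array per strain. Strain 83, with no raised stretch, was among the others here.

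Against their own flanks the inner probes of the 12 strains lay between −0.23 and 0.10. The lowest of these was strain 106, where both flanks were raised, by 0.19 on the left and 0.22 on the right relative to WT14, while the inner probes read −0.02 ± 0.08. In this strain the inner probes thus read lower than the DNA next to them, but on 1 array no change of the repeat is read from this. Strain 76 was next, at −0.19, because of a step in its right flank. There, 9 probes up to 218026 had a median of 0.02 and 21 probes from 218188 on a median of 0.67, against −0.10 to 0.17 and −0.08 to 0.24 in WT14 and the 11 TAQed strains other than 76 and 119. The step lay 1917 bases right of the last inner probe, and the inner probes of strain 76 read 0.06 ± 0.06 relative to WT14. The CUP1 repeat was thus on the unchanged side of the step.

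In strain 119 the whole of chromosome VIII was low, with a median of −1.05 over its probes, where the loss of 1 of 2 copies gives −1. The left and right flanks of the locus read −0.95 and −0.94. The inner probes lay far lower than these flanks. The probe from 213226 to 213285 read −3.47 in strain 119 against 0.36 in WT14. The probe from 214219 to 214278 read −4.14 against 0.36. It was the lowest of the inner probes.

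The pair of probes from 215192 to 215251 read −3.62 and −3.28 against 0.41 and 0.39. The probe from 215647 to 215706 read −3.67 against −0.12, and the probe from 216223 to 216271 read −2.42 against 0.15. On the other 13 arrays, the 6 inner probes read between −0.26 and 0.63, a gap of 2.16 from strain 119. Strain 119 was also the lowest array beside the repeat. At the flank probe from 216541 to 216598 it read −0.81, against 0.04 in strain 81, the next lowest. The share of chromosome VIII probes at which strain 119 did not overlap was not computed, so this is a description.

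Relative to WT14 the inner probes of strain 119 were lower by 3.69 ± 0.64 (SD, n = 6 probes), which leaves 7.74% of the WT14 ratio, against 50.8% at the flanks. The Cy5 level fell by 3.05 and the Cy3 level of the WT14 reference was higher by 0.61, against 0.11 at the flanks. On the left the ratio passed from −0.88 at the probe ending at 212238 to −3.47 at the probe starting at 213226, across the gap without probes. On the right it passed from −2.42 at the probe ending at 216271 to −0.81 at the probe starting at 216541. The low probes lay between 213226 and 216271, apart from the raised stretch among them, and the left end of the low part was not resolved within the gap.

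The 3 probes of the CUP1-2 stretch lie between these low probes, and in strain 119 they read 3.48, 3.11 and 3.16. The median of the stretch was 6.70 above that of the inner probes, the widest difference of the 13 TAQed strains. Low values were not particular to the CUP1 window on this chromosome. In strain 119, 73 of the 2741 probes of chromosome VIII outside the window (2.66%) also read below −2. In the window 6 of the 8 repeat probes did. These are the inner probes, a set chosen after the values were seen. On other chromosomes 0 probes did. The low probes of the chromosome formed 60 runs, most of them of 1 or 2 probes, and 4 of 3 or more neighboring probes. Outside the window the longer runs lay at 3 other places, at 8018 to 8437, 93422 to 94210 and 193459 to 194010. With the raised stretch set aside, the CUP1 repeat held a run of 6 probes, 2 of them with the same coordinates. The run at 93422 to 94210 held 5 probes, and 2 more low probes lay at 94580 to 94910. The median was −3.55 at the CUP1 repeat, against −2.57, −5.71 and −6.35 at the 3 other places, in the order given above. On the other 13 arrays, 0 probes of chromosome VIII read below −2.

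Whether a change recurred over the TAQed strains was tested for each probe with limma, 13 TAQed arrays against the WT14 array. The lone WT14 array was assumed to vary like the TAQed arrays. At the 3 stretch probes the TAQed mean was higher by 2.85 ± 1.25, 2.70 ± 1.18 and 2.68 ± 1.17 (SE), and limma's adjusted p was 1 at each of them (unadjusted 0.038 at each). All 13 TAQed arrays read above the WT14 array at these 3 probes, a count given without its share over all probes. Over all 59064 probes tested, 0 passed an adjusted p of 0.05 in either direction (0% higher and 0% lower), and 499 had an unadjusted p under 0.05. Neither the raised stretch in 12 strains nor the low repeat in 1 strain passed, and with 1 control array an exact permutation test could not give a p under 0.0714 for any probe. At the inner probes the TAQed mean differed from WT14 by −0.30 to −0.12, with SEs of 0.72 to 1.22 that strain 119 set. Without strain 119 the same differences were 0.00 to 0.09, with SEs of 0.09 to 0.12.

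The arrays held other short stretches of high ratio. Chromosomes III, V and XV were named beforehand, with earlier results of these data known. On each, the 2 kb window with the highest median level over the TAQed strains was taken. The remaining chromosomes were not searched in this way. The levels of these windows are thus a description. Their raised probes lay at 91376 to 91928, 116139 to 116887 and 722388 to 722554, in the same order. Genes were not placed there without an annotation of sacCer2. Whether these windows hold marker genes mutated in the parents, such as LEU2, URA3 or HIS3, was not tested. In the window from 90001 to 92000 of chromosome III the mean ratio was −0.20 in WT14, −0.10 in strain 83 and 4.28 to 5.86 in the other 12 TAQed strains. In the window from 116001 to 118000 of chromosome V it was 0.08, 0.02 and 1.53 to 3.50. In the window from 722001 to 724000 of chromosome XV it was 0.02, 0.13 and 1.50 to 2.55. Strain 83 was near WT14 in these 3 windows as it was at the CUP1-2 stretch.

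In the chromosome V and XV windows the Cy3 level was lower than on the WT14 array in 12 of the 12 strains with high ratios, as at the CUP1-2 stretch. In the chromosome III window it was lower in 8 of these 12.

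Across the 12 strains with raised stretches, the level of the CUP1-2 stretch was set against that of the other windows. Strain 83 lay apart from the others and was left out of the relations. For chromosome XV, Pearson's r was 0.98 (two-sided permutation p = 1e-05, the smallest these permutations can give) and Spearman's rho was 0.97 (p = 2e-05). After Benjamini-Hochberg adjustment over the 3 relations these became 3e-05 and 6e-05, and without strains 113 and 84, farthest from the median of the window, r was 0.96. For chromosome V, r was 0.83 (permutation p = 0.00068, adjusted 0.001) and rho 0.86 (p = 0.00072, adjusted 0.0011), and without strains 84 and 117 r was 0.90. For chromosome III, r was 0.60 (permutation p = 0.042, adjusted 0.042) and rho 0.69 (p = 0.016, adjusted 0.016), and without strains 81 and 113 r was 0.93. The value for chromosome III rested on the dim array of strain 81, without which r was 0.96. The plan did not fix how a window is summarized, and the mean was chosen after the values were seen. The p-values above are thus not those of a planned summary. The relations depended on this choice, as 2 alternatives show that were also chosen after seeing the data. With the median over its probes in place of the mean, r was 0.16 for chromosome XV (adjusted permutation p = 0.67), where 3 of 11 probes are raised, 0.62 for chromosome V (adjusted permutation p = 0.075) and 0.99 for chromosome III (adjusted permutation p = 3e-05). With the median over the raised probes alone, r was 0.97, 0.99 and 0.29, in the same order (adjusted permutation p = 3e-05, 3e-05 and 0.35). With loess, r for chromosome III was 0.56 (adjusted permutation p = 0.062). On the 8 arrays of slide 2 alone, r was 0.98 for chromosome XV (exact permutation, adjusted p = 0.00026), 0.82 for chromosome V (exact, 0.023) and 0.97 for chromosome III (exact, 0.00026). Slide 1 held 4 of the 12 arrays, too few for a value. The stretches share the centring and the depth of each array.

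**Figure D4:**
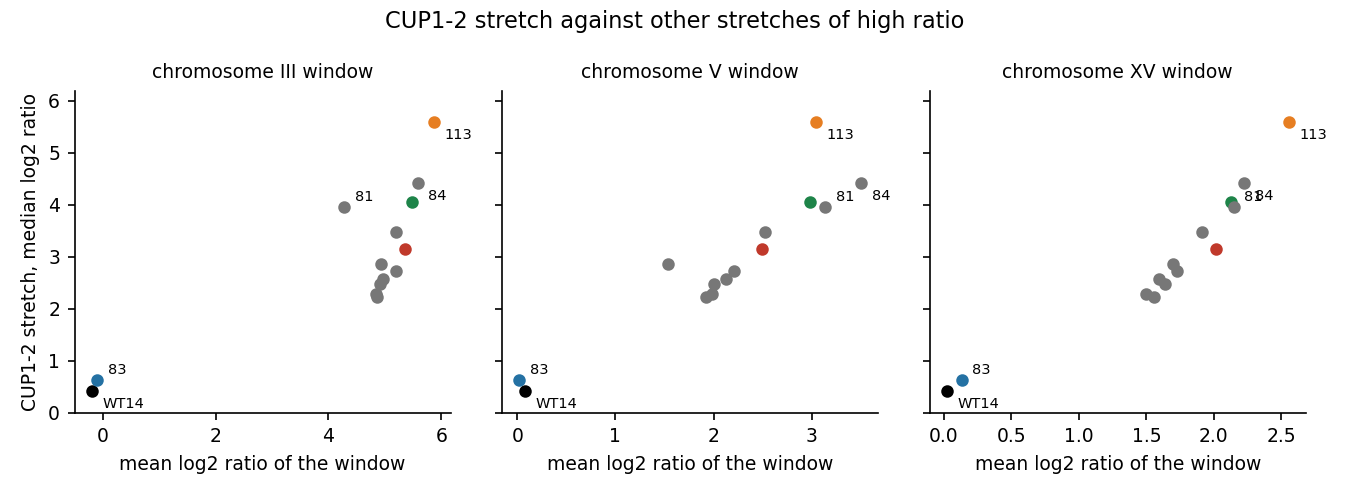
The median log2 ratio of the CUP1-2 stretch is plotted against the mean log2 ratio of the 2 kb windows on chromosomes III, V and XV, 1 point per array, with WT14 in black, strain 83 in blue, strain 76 in green, strain 113 in orange and strain 119 in red. WT14 and strain 83 lie at the lower left of each panel, and the other 12 strains run together in the chromosome XV panel (r = 0.98 with the mean over the window's probes and 0.16 with their median) with strain 81 off the line in the chromosome III panel.

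Of 6025 windows of 2 kb outside the locus and its flanks, the 5 whose pattern over the 13 TAQed strains was most like that of the CUP1-2 stretch were ranked by Pearson's r. They were chromosome III from 92001 to 94000 (0.94), chromosome XV from 722001 to 724000 (0.93), chromosome V from 116001 to 118000 (0.89), chromosome II from 802001 to 804000 (0.78) and chromosome XV from 720001 to 722000 (0.77). The window on chromosome II ranged only from −1.05 to 0.08. For the repeat probes the 5 most alike windows were all on chromosome VIII, from 90001 to 96000, 132001 to 134000 and 192001 to 194000, at r = 0.995 to 0.997. Each of them was low in strain 119, which sets that likeness.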

How the data were processed

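The members and lists were chosen with earlier results of these data known. The authors deposited 2-colour spot tables of Agilent Feature Extraction 11.0.1.1, with probe positions in sacCer2, and a table of log10 ratios that holds part of the same probes and was used as an alternative. The deposited processed intensity had its background removed and a linear dye factor applied. Control spots and 64 to 135 outlier spots per array were dropped, spots of a probe were averaged, probes spanning over 100 bases were removed, and log2 of Cy5 over Cy3 was centred on the median of each array without loess. No spot was saturated. Probes were placed by coordinates alone, thresholds were 0.3 for the repeat and 1 for the stretch, and a window's value was the mean over its probes. The mean was chosen after the values were seen. Probes were tested with limma 3.58.1 (lmFit, eBayes, Benjamini-Hochberg), and relations with 100000 permutations. The limma fit was also run on simulated ratios, with the same shift on every TAQed array and their spread given to WT14. That simulation assumed the spread of the lone control and could not test it. Named were CUP1-1, CUP1-2, their neighbors and the windows most like them. A list of copper genes could not be placed without an annotation of sacCer2 and was not analysed here. No column of the series table was left unmapped. The number of arrays limits the precision.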

Additional observations from a re-analysis of the deposited data

How the results depend on the processing

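The alternatives covered background correction, loess, centring, the source of the values, spot filters, probe sets, thresholds and left-out arrays. The count of 12 TAQed strains with the CUP1-2 stretch above 1 held under 9 of 9 alternatives at 12 or 13, and the low repeat of strain 119 stayed between −3.62 and −2.14. The number of strains with the repeat above 0.3 was 9 and fell to 0 with loess, to 0 with the WT14 array subtracted and to 2 at a threshold of 0.4. With WT14 subtracted, the repeat turned to −0.0095 in strain 97 and to −0.02 in strain 113, whose main value of 0.28 was under the threshold. For limma, leaving out 1 TAQed array gave 0 to 3 probes higher, the 3 without strain 83 and none of them in the CUP1 window, and 0 lower, and the remaining limma settings gave 0 calls. For chromosome III the relation missed the threshold with loess (r = 0.56, adjusted permutation p = 0.062), and, in settings chosen after seeing the data, with the median of the window's raised probes (r = 0.29, adjusted permutation p = 0.35). With the median over all probes of the window, also chosen after seeing the data, r was 0.62 for chromosome V (adjusted permutation p = 0.075) and 0.16 for chromosome XV (adjusted permutation p = 0.67), where 3 of the 11 probes are raised. Why the other settings differ was not tested. Leaving out the strain lowest in both measures is not given apart, since that strain, 83, was left out of the relations already. No further pairing between arrays was made, since each strain had 1 array. The ratio already sets each strain against the WT14 DNA on the same array.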
